A study of Arabidopsis thaliana with 24 samples.

Results

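The members described here are 3132 transposable elements (TEs) of Arabidopsis thaliana, of 31189 listed in the deposited RNA tables, that had read counts in leaves of the line DH6 and in no other group. A TE was taken when its count was 0 in all 10 libraries of DH9, DH14, sDH, 2n and 1n and at least 1 in either DH6 library. The members were thus chosen by their counts in DH6 and in the other groups, and these counts are given below as a description with no test. The tables name each TE by an identifier alone, such as AT2TE21295, so that family, length, strand and coordinates were not used here.

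The study sequenced poly(A) RNA from the 6th, 7th and 8th leaves of plants aged 2 weeks, with 2 libraries in each of 6 groups. DH6, DH9 and DH14 are doubled-haploid lines, sDH is a group whose name the labels do not spell out, 2n is diploid and 1n haploid. The names of the deposited counts hold Col beside 1n, and Col for the columns taken as 2n, which are headed WT. They hold no accession beside DH6, DH9, DH14 or sDH. No group carries a listed treatment, and all plants grew on soil at 22 °C with 16 h of light after 2 days of stratification at 4 °C. The labels describe the libraries of a group as biological replicates and do not say whether plants, sowings or harvest days differed, nor do they give the generation or parents of a line. P-values below thus measure the spread between these libraries, which may be technical. The 2 libraries of DH6 carry the numerals II and III in the tables, and are called DH6 II and DH6 III.

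Transposable elements are mobile DNA sequences and their decayed remnants, and in Arabidopsis they lie most densely around the centromeres. Most are kept silent by DNA methylation, which MET1, CMT2 and CMT3 copy onto new DNA with the help of the remodeller DDM1, and which small RNAs guide through RNA polymerases IV and V in RNA-directed DNA methylation. Histone marks and the MOM1 and MORC proteins add silencing that does not rest on methylation alone. Plants that lose MET1 or DDM1 are known to transcribe many TEs.

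DH6 II held 22146896 counts in genes and DH6 III held 20844886, against 16484799 to 21034760 in the other 10 libraries. For each 1000 gene counts there were 11.3 TE counts in DH6 II and 11.1 in DH6 III, against 9.08 to 12.4 elsewhere. A count was found at 4228 TEs of DH6 II and 4864 TEs of DH6 III, against 2520 to 2935 TEs in the other libraries. The share of TE counts in DH6 thus lay within the range of the other libraries, while more TEs had a count. In RNA from whole leaves, fewer cells of a type and less RNA per cell cannot be told apart. The labels give no sequencing batch or date, so that no batch could be compared with the groups.

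In all, 26043 TEs (83.5% of the table) had no count in the 10 other libraries, and they are called silent TEs below. The members were 12.03% of them (95% exact Clopper-Pearson interval 11.6 to 12.4%, covering counting error only), and 22911 TEs had no count in any of the 12 libraries. DH6 II had a count at 1443 members, or 5.54% of silent TEs (interval 5.27 to 5.83%). DH6 III had a count at 2046 members, or 7.86% (interval 7.53 to 8.19%). DH6 III thus reached more silent TEs than DH6 II although it held fewer gene counts.

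Almost all members were seen as a handful of reads. A single count made up 1920 members (61.3%), and 738 (23.6%) had 2 counts over both libraries. At least 3 counts were reached by 474 members (15.1%) and at least 10 counts by 11. The median summed count was 1 and the highest was 58. One count equals 0.0452 CPM (counts per 1000000 gene counts) in DH6 II and 0.0480 CPM in DH6 III, while a count of 0 in one of the other libraries allows up to 3 counts, or 0.143 to 0.182 CPM. For a member with 1 count, a difference from any one other library was therefore not detectable at this depth.

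**Figure D1:**
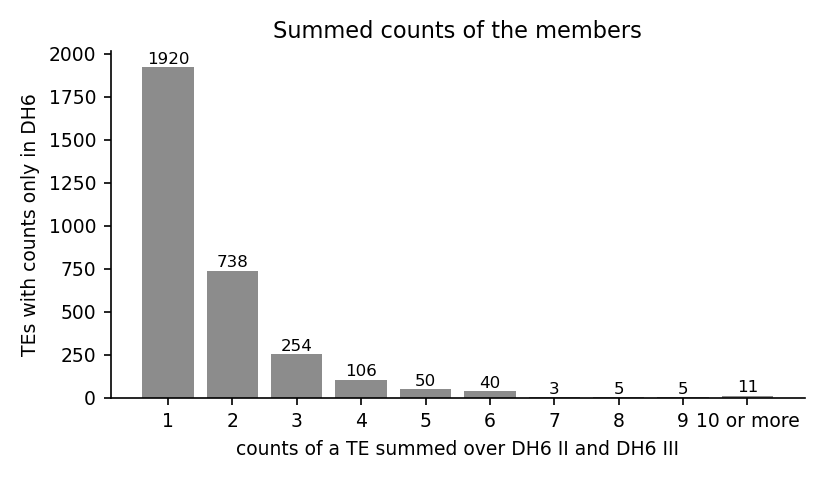
Number of members (vertical axis) by the counts of a TE summed over DH6 II and DH6 III (horizontal axis). Members with a single count number 1920, and 11 members have 10 or more.

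Together the members held 5399 counts. They made up 2426 counts in DH6 II (0.972% of that library's TE counts) and 2973 counts in DH6 III (1.29%). The member with most counts held 1.07% of the total and the top 20 held 5.52%. Members with a count in DH6 II had 1.68 counts there on average, and members with a count in DH6 III had 1.45. The counts were thus spread over many TEs.

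Only a minority of members recurred between the 2 libraries. Counts in both were found at 357 members (11.4%), counts in DH6 II alone at 1086 and counts in DH6 III alone at 1689. The shared members were 24.7% of those seen in DH6 II and 17.4% of those seen in DH6 III. Among silent TEs without a count in DH6 II, 6.87% had one in DH6 III, and among those without a count in DH6 III, 4.53% had one in DH6 II. A TE seen in one library thus had the higher share in the other library, although most were not seen again. Recurrence was higher at 3 or more counts than at 1 count. Of silent TEs with 1 count in DH6 II, 22.1% had a count in DH6 III (interval 19.4 to 25.0%), and of those with 3 or more counts, 38.7% did (interval 32.2 to 45.5%). In the other direction, DH6 II had a count at 14.6% of the TEs with 1 count in DH6 III (interval 12.8 to 16.5%) and at 38.4% of those with 3 or more (interval 30.9 to 46.3%). At 2 counts in DH6 II, 22.7% had a count in DH6 III (interval 18.3 to 27.6%), close to the share at 1 count. At 2 counts in DH6 III, 19.0% had one in DH6 II (interval 15.5 to 23.0%).

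The 20 members with the largest summed counts among those seen in both libraries held 7 to 58 counts each. AT2TE21295 led with 41 counts (1.85 CPM) in DH6 II and 17 counts (0.816 CPM) in DH6 III. AT4TE14145 followed with 18 counts (0.813 CPM) in DH6 II and 31 counts (1.49 CPM) in DH6 III, while AT2TE00015 had 7 and 18 counts. The order of the 2 libraries thus differed among the 3 highest members. Folds were taken per gene count, with both DH6 libraries pooled, over a floor of 3 counts in the 10 other libraries together. They were 84.2 for AT2TE21295, 71.1 for AT4TE14145 and 36.3 for AT2TE00015. The spread between the DH6 libraries is not part of these folds. These folds follow from the rule that chose the TEs.

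AT2TE14330 and AT5TE42440 each had 10 counts in DH6 II and 3 in DH6 III. AT3TE47935 had 4 counts in DH6 II and 7 in DH6 III, AT4TE16575 had 9 and 2, and AT5TE52795 had 6 and 5. Each of AT3TE51505, AT4TE14180 and AT5TE50900 reached 10 counts in all. DH6 II was the higher library at 14 of the 20 members, DH6 III at 5, and they were equal at AT4TE19030 with 4 counts each. By the chromosome number in the identifier, 7 of the 20 are on chromosome 2, 6 on chromosome 4, 3 each on chromosomes 3 and 5, and 1, AT1TE51155, on chromosome 1. None of them has a family or a gene name in the sources used here.

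**Figure D2:**
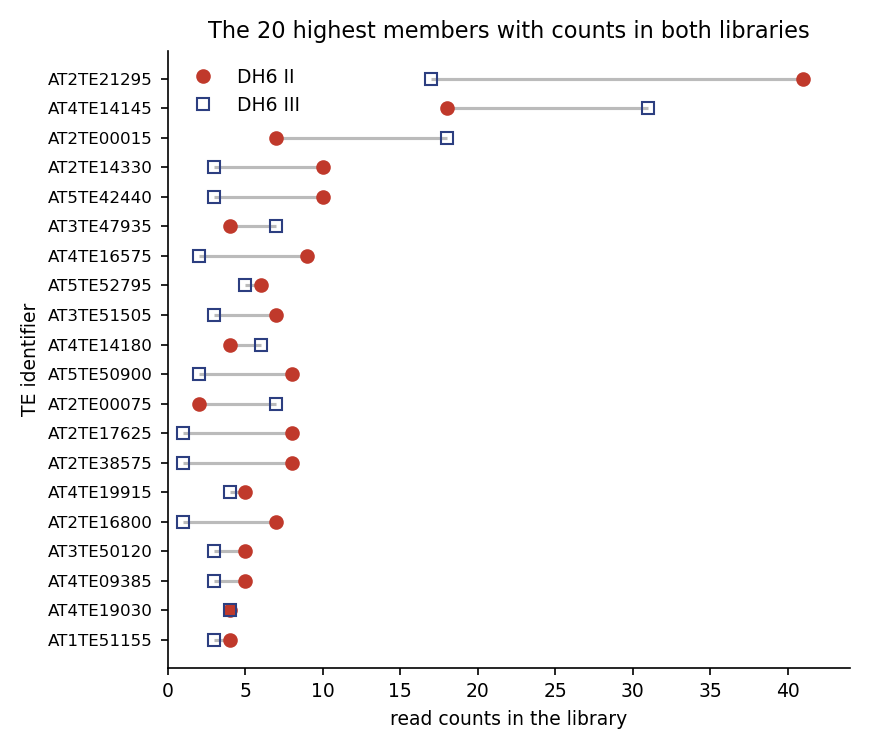
Read counts (horizontal axis) of the 20 highest members with counts in both DH6 libraries, 1 row per TE; filled circles are DH6 II and open squares DH6 III. AT2TE21295 and AT4TE14145 stand above the rest, with 58 and 49 summed counts, and the last of the 20 has 7.

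Members seen in a single library reached at most 9 counts, against 58 summed counts among those seen in both. AT5TE38340 had 9 counts in DH6 III and 0 in DH6 II, and AT5TE38745 had 8 and 0. AT5TE23200 had 7 counts in DH6 II and 0 in DH6 III. The remaining 2 of the 5 highest were AT1TE42395, with 6 counts in DH6 III, and AT1TE44690, with 6 in DH6 II. Their summed counts of 6 to 9 overlapped with the lower end of the 20 highest members seen in both libraries, which held 7 to 58.

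A filter on low counts, edgeR's filterByExpr with a minimum count of 10, kept 1374 TEs of the whole table. Of the 3132 members it kept 2, AT2TE21295 and AT4TE14145, and both passed through DH6 alone. No test of DH6 against another group is given for them, since the same counts chose them.

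Just outside the rule stood TEs with DH6 counts and 1 stray count elsewhere. Of 1195 TEs with exactly 1 count over the 10 other libraries, 375 (31.4%) had a DH6 count. AT5TE42190 had 9 counts in DH6 II and 8 in DH6 III, with 1 count in a 1n library. AT1TE51040 had 8 and 6 counts, and AT5TE42135 had 7 and 7. AT3TE54330 had 6 and 6 counts and AT2TE00030 had 7 and 4. All 5 had counts in both DH6 libraries. Just inside the rule stand the 1920 members with a single count.

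The same rule was then applied to each group in turn, taking TEs without a count in the other 5 groups. Against the 3132 TEs of DH6, DH9 alone had counts at 175 TEs, DH14 at 171, sDH at 421, 2n at 180 and 1n at 215. As a share of the TEs silent in the other groups, this was 12.03% in DH6, against 0.758% in DH9, 0.741% in DH14, 1.80% in sDH, 0.780% in 2n and 0.930% in 1n. Thinned to the smallest gene-count total, each DH6 library was expected to have a count at 4.57% (DH6 II) and 6.62% (DH6 III) of silent TEs, against 0.308 to 1.03% in the other libraries. The DH6 shares thus stood above the others with gene-count totals matched. TE totals, and the set of TEs counted as silent, were not matched. With 2 libraries a group, this difference is a description and was not tested.

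Concentration was compared in the same way. The 10 highest TEs held 3.91% of the private counts in DH6, against 14.4 to 45.4% in the other groups, whose lists are shorter. The 45.4% belonged to sDH, where AT5TE25460 had 348 counts in sDH III and 0 in sDH II. That single TE had more counts than any DH6 member. Single counts made up 61.3% of the private TEs of DH6 and 62.8 to 76.6% of those of the other groups. Counts in both libraries were found at 11.4% of the private TEs of DH6, against 1.17 to 6.11% in the other groups, or 2 to 11 TEs each. These shares were not matched for the number of TEs reached and were not tested.

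**Figure D3:**
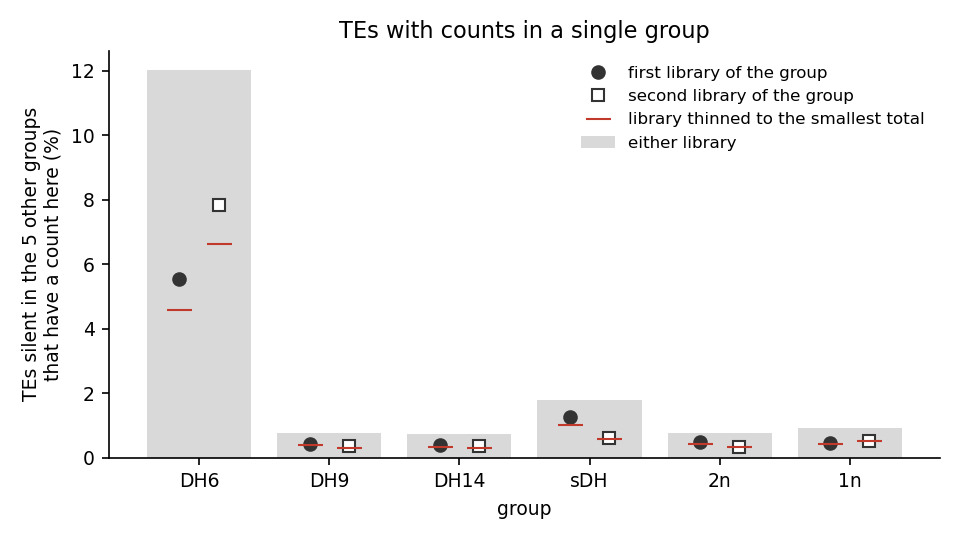
Share of TEs silent in the 5 other groups that had a count in the named group (vertical axis, %). Bars give either library, points each library and red dashes the share expected with the library thinned to the smallest total; DH6 stands at 12.03% and the other groups at 0.741 to 1.80%.

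The DH6 shares were also higher than those of sDH at TEs with up to 20 counts elsewhere. TEs were sorted by their counts summed over the 8 libraries of DH9, DH14, 2n and 1n, and DH6 was set beside sDH, which took no part in the sorting. The shares were not matched for depth, and sDH II held 21034760 and sDH III 17434011 gene counts. Where that sum was 0, the share of TEs with a count was 5.87% for DH6 II and 8.20% for DH6 III, against 1.66% in sDH II and 0.772% in sDH III. Where it was 1, the shares were 20.5% in DH6 II and 22.4% in DH6 III, against 9.67% in sDH II and 7.85% in sDH III. Where it was 6 to 10, they were 50.5 and 52.2% in DH6 II and DH6 III, against 49.0 and 38.4% in sDH II and sDH III. Where it was 11 to 20, they were 74.1 and 73.3% in DH6 II and DH6 III, against 72.2 and 62.8% in sDH II and sDH III. Where it was 21 to 50, they were 87.2 and 84.3% in DH6 II and DH6 III, against 88.8 and 85.1% in sDH II and sDH III, so that neither group stood above the other.

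**Figure D4:**
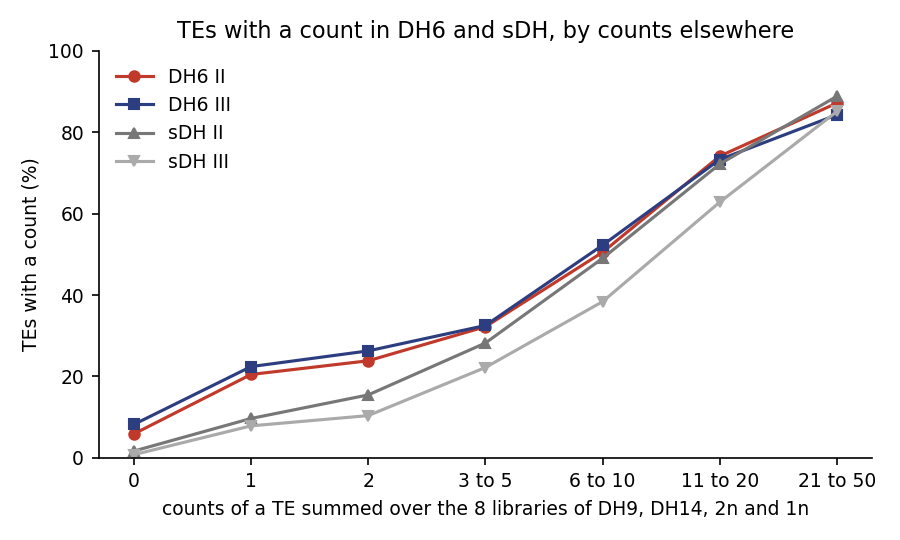
Share of TEs with a count (vertical axis, %) in DH6 II, DH6 III, sDH II and sDH III, by the counts of the TE summed over the 8 libraries of DH9, DH14, 2n and 1n (horizontal axis). The DH6 lines lie above the sDH lines in each class up to 11 to 20 counts, and the 4 lines lie between 84.3 and 88.8% at 21 to 50 counts.

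Members were spread over all chromosomes, read from the digit in the identifier. They were 11.5% of silent TEs on chromosome 1 (interval 10.7 to 12.3%), 12.7% on chromosome 2 (11.8 to 13.6%), 10.96% on chromosome 3 (10.1 to 11.8%), 12.5% on chromosome 4 (11.5 to 13.6%) and 12.7% on chromosome 5 (11.9 to 13.6%). The intervals of chromosomes 1, 2 and 4 overlapped with all others, and that of chromosome 3 lay just under that of chromosome 5. Members seen in both libraries were 0.945% of silent TEs on chromosome 1 and 1.39 to 1.60% on the other chromosomes. Neighbouring TEs can share a transcript, so that intervals that treat TEs as independent may be too narrow.

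Shares differed along the identifier order of each chromosome, and the bin with the highest share was neither the first nor the last on any of them. Identifier numbers are known to rise along a chromosome, and silent TEs were cut into 52 bins of about 500 in that order. On chromosome 5 members were 19.0 and 19.8% of silent TEs in the fourth and the fifth of 11 bins, against 13.6% in the first, 8.38% in the second and 8.20% in the eighth. Chromosome 2 reached 20.2% in the fourth of 10 bins. Chromosome 4 reached 19.0% in the third of 8 bins, while the fifth had 11.4%, less than the 12.96% of the first. On chromosome 1 the fifth and the sixth of 12 bins both stood at 15.2%, and the last bin at 13.8%. Chromosome 3 had 14.5% in the fifth bin, 9.86% in the seventh and 14.7% in the eighth of 11 bins. The lowest bin of all, the tenth of chromosome 3, still had 7.04%. The bins ranged from 2.80 to 11.8% in DH6 II and from 4.23 to 14% in DH6 III. The highest bin was the same in both libraries on chromosomes 2 and 4. On chromosome 3 the sixth bin was the highest of DH6 II at 8.84%, while DH6 III had 5.42% there, less than the 7.23% of its first bin.

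**Figure D5:**
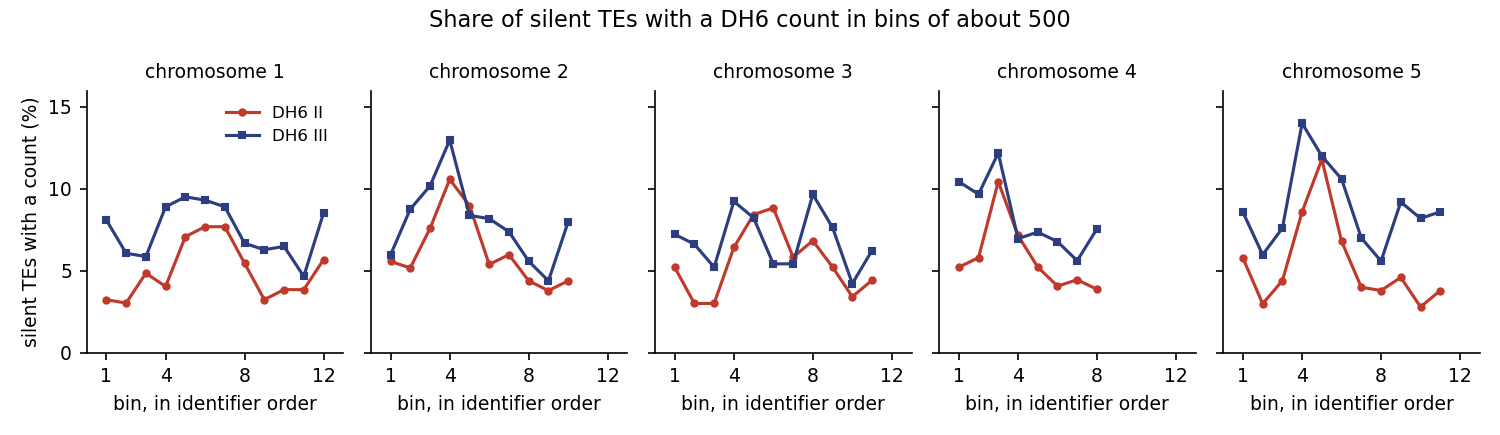
Share of silent TEs with a count (vertical axis, %) in DH6 II and DH6 III, in bins of about 500 silent TEs along the identifier order of chromosomes 1 to 5 (horizontal axis, bin number). The highest bins are on chromosome 5, at 11.8% for DH6 II and 14% for DH6 III. On chromosome 3 the lines part in the sixth bin, with 8.84% in DH6 II and 5.42% in DH6 III.

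At finer scale, neighbours depended on which members were taken. Of the 3132 members, 19.96% stood next to another member in identifier order, and of the 22911 silent TEs without any count, 19.8% stood next to a member. Members with at least 2 summed counts were next to another such member in 9.08% of cases, against 7.95% of the other silent TEs. Members with counts in both libraries were next to another such member in 5.602% of cases, against 2.47% of the other silent TEs. These shares were not matched for bin, and members with counts in both libraries numbered from 0 to 20 in a bin. Grouping within a bin was therefore not separated from differences between bins. A run of 1 made up 2507 members, and 35 runs held 3 members and 3 runs held 4. The 3 longest runs were AT4TE19900 to AT4TE19915, with 9 counts in DH6 II and 6 in DH6 III, AT4TE33735 to AT4TE33750, with 2 and 4 counts, and AT5TE39205 to AT5TE39230, with 0 and 6. Of 1300 windows of 20 silent TEs, 91.8% held at least 1 member, the median window held 2 and the fullest, AT2TE16515 to AT2TE16610, held 10.

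TEs with counts in other groups did not lie more often beside the members. A neighbour with counts outside DH6 stood next to 22.0% of the members, against 23.5% of the silent TEs without a count. For members seen in both libraries the share was 15.4%, against 23.4% of the other silent TEs. Silent TEs made up 69.3 to 96.9% of the TEs in a bin, and these shares were not matched for that.

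Genes without counts elsewhere were read in the same libraries. Of 3947 genes without a count in the 10 other libraries, DH6 II had a count at 459 (11.6%) and DH6 III at 821 (20.8%), with a median of 1 count in either. Counts in both libraries were found at 135 genes, which is 29.4% of those seen in DH6 II and 16.4% of those seen in DH6 III. These shares were higher than the 5.54 and 7.86% of silent TEs in DH6 II and DH6 III, with no match for length. As for TEs, DH6 III reached more silent genes than DH6 II. The part that such scattered counts in genes share with those in TEs was not tested.

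Leaf identity and other tissues were read from marker genes. The 6 leaf markers, photosynthesis genes such as RBCS1A, summed to 80874 CPM in DH6 II and 78113 CPM in DH6 III, against 71445 to 94595 CPM in the other libraries. The 11 root markers summed to 14.4 and 17.3 CPM in DH6 II and DH6 III, against 13.1 to 19.2 CPM elsewhere, and 4 of the 11 had no count in DH6. Most of that sum was SHR, with 284 counts in each DH6 library and 146 to 311 in the others. NRT2.1 had 27 and 62 counts in DH6 II and DH6 III, against 14 to 68. The root sum thus says little about the other root genes. Of the root-hair genes, EXPA7, RSL4 and RHD6 had no count in any library, LRX1 had 6 counts in DH6 III and none elsewhere, and COBL9 and PRP3 had 2 counts each in DH6 III, 0 in DH6 II and 0 to 5 in the other libraries. Pollen markers (12) summed to 9.57 and 9.55 CPM in DH6 II and DH6 III, against 6.34 to 9.43 CPM, flower markers (8) to 1.85 and 1.30 CPM, against 0.612 to 3.88 CPM, and seed markers (11) to 0.858 and 0.480 CPM, against 0.172 to 1.52 CPM. Of the pollen list, the sperm-cell histone gene MGH3 had no count in any library. DUO1, a regulator of sperm-cell formation, had 2 counts in DH6 III and none elsewhere. The sperm gene HAP2 had 17 and 6 counts in DH6 II and DH6 III, against 1 to 12. In the same order, ANX1 had 113 and 113, against 48 to 111, the largest part of the pollen sum in DH6. AGP6 had 12 and 26, against 4 to 17, and ANX2 had 0 and 3, against 0 to 1. SWEET5 had 28 and 20, against 8 to 29, and GEX1 had 29 and 20, against 7 to 34. AGP11 had 2 and 4, against 0 to 5, and VGD1 had 4 and 3, against 0 to 20. VGDH1 had 5 and 2, against 0 to 8, and PPME1 had 2 and 0, against 0 to 7. Of the flower list, AP1 and AP3 had no count in DH6, while SEP3 had 17 and 14 counts in DH6 II and DH6 III, against 0 to 15, and AG had 13 and 11, against 4 to 40. Meristem markers (4) summed to 0 CPM in DH6 II and 0.0480 CPM in DH6 III, against 0 to 0.364 CPM. Marker genes with counts only in DH6 were 3 of the seed list with 1 count each, LRX1 of the root and DUO1 of the pollen list. Such counts were not limited to markers, since DH6 II reached 11.6% and DH6 III 20.8% of all 3947 genes silent elsewhere. Whether the marker lists differ from that base was not tested. The part of other cell types in the TE counts was not tested.

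Genes that act in TE silencing or counter it were tested next, since gene counts took no part in choosing the members. A list of 56 genes was read, 4 of them DNA demethylases, which remove methylation, and 55 passed the filter on low counts. The exception was chr31, which helps recruit RNA polymerase IV. Against 2n, 4 of the 55 rose in DH6 and 4 fell by edgeR's quasi-likelihood test (Benjamini-Hochberg adjusted p under 0.05 over 19201 genes), where 11.9% of all tested genes rose and 13.2% fell. The difference between these shares was not tested. The median log2 change of the list was 0.10, beside 0.05 over all tested genes.

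None of the 10 genes that maintain DNA methylation passed against 2n. MET1, the CG methyltransferase, had 69.2 CPM in DH6 II and 82.3 CPM in DH6 III, against 69.6 and 82.3 CPM in 2n (log2 change -0.003, SE 0.115, edgeR adjusted p = 0.99). DDM1, the chromatin remodeller, averaged 17.2 ± 1.57 CPM in DH6 and 13.5 ± 1.84 CPM in 2n (SD, n = 2 each), with a log2 change of 0.35 (SE 0.120, edgeR adjusted p = 0.0547). CMT3 averaged 41.1 CPM in DH6 and 41.4 CPM in 2n, and CMT2 averaged 43.1 CPM in DH6 and 30.8 CPM in 2n (edgeR adjusted p = 0.969 and 0.0676). CMT2 passed as higher with DESeq2 (adjusted p = 0.0457) and with no filter on low counts (edgeR adjusted p = 0.0314), and DDM1 passed without the second 2n library (edgeR adjusted p = 0.0398). For MET1 and CMT3 the libraries of both groups overlapped.

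In RNA-directed DNA methylation 2 of 21 tested genes rose against 2n and 19 did not pass. SUVH2 and SUVH9, which bind methylated DNA and help place RNA polymerase V, averaged 10.5 ± 0.0393 and 26.5 ± 0.0712 CPM in DH6, against 7.42 ± 0.105 and 20.5 ± 2.14 CPM in 2n (edgeR adjusted p = 0.0328 and 0.0245). With DESeq2 neither passed against 2n (adjusted p = 0.116 and 0.0887). Neither passed against 1n (edgeR adjusted p = 0.313 and 0.716) or against the mean of DH9 and DH14 (edgeR adjusted p = 0.157 and 0.413). NRPD1, the large subunit of RNA polymerase IV, averaged 3.69 CPM in DH6 and 3.15 CPM in 2n (edgeR adjusted p = 0.475). NRPE1, that of RNA polymerase V, averaged 16.2 CPM in DH6 and 15.6 CPM in 2n, and the methyltransferase DRM2 10.5 CPM in DH6 and 10.3 CPM in 2n (edgeR adjusted p = 0.794 and 0.893).

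MORC2 (CRH1 in the reference table), of a family of ATPases with roles in gene silencing and plant immunity, was lower in DH6. It had 4.67 CPM in DH6 II and 4.74 CPM in DH6 III, against 10.4 and 11.9 CPM in 2n (log2 change -1.24, SE 0.153, edgeR adjusted p = 0.000197). Both DH6 libraries lay below both 2n libraries. Against 1n the log2 change was -1.32 (SE 0.154, edgeR adjusted p = 6.62e-05) and against the mean of DH9 and DH14 it was -1.28 (SE 0.138, edgeR adjusted p = 0.000193). The 3 comparisons share the DH6 libraries. MOM1, a silencing factor that acts beside DNA methylation, averaged 23.7 CPM in DH6 and 24.1 CPM in 2n (edgeR adjusted p = 0.899).

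Of the other calls against 2n, DCL4, which cuts small RNAs in post-transcriptional silencing, fell (log2 change -0.54, SE 0.142, edgeR adjusted p = 0.0178). The demethylase genes ROS1 and DML2 fell as well (log2 change -0.48 and -0.43, edgeR adjusted p = 0.0201 and 0.0373), while DML3 rose (log2 change 0.69, edgeR adjusted p = 0.0308). With DESeq2 ROS1 passed (adjusted p = 0.00406), and DML2 and DML3 did not (adjusted p = 0.0541 and 0.0684). AT2G30620 rose (log2 change 0.45, edgeR adjusted p = 0.0234). Without DH6 II or without DH6 III only 1 of the 8 calls was left, that of MORC2, and without the second 2n library 3 genes passed, 2 of them among the 8.

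Against 1n, 21 of the 55 genes rose in DH6 and 7 fell, where 22.6% of all tested genes rose and 24.5% fell. In the maintenance list 3 of 10 did not pass and 7 rose, DDM1 (log2 change 1.00, SE 0.125, edgeR adjusted p = 1e-04), CMT3 (0.94, SE 0.125, edgeR adjusted p = 0.000141) and MET1 (0.72, SE 0.117, edgeR adjusted p = 0.000501) among them. NRPD1 fell (log2 change -0.98, SE 0.206, edgeR adjusted p = 0.00261). DML3, which rose against 2n, fell against 1n (log2 change -0.98, SE 0.192, edgeR adjusted p = 0.00172). ROS1 and DML2 did not pass against 1n (log2 change 0.10 and -0.09, edgeR adjusted p = 0.555 and 0.607). Without DH6 III 17 of the genes passed.

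Against the mean of DH9 and DH14, 7 of the 55 rose in DH6 and 8 fell, where 12.9% of all tested genes rose and 14.2% fell. ROS1 had 57.2 CPM in DH6 II and 59.3 CPM in DH6 III, against 97.5 to 111 CPM in the 4 libraries of DH9 and DH14 (log2 change -0.84, SE 0.117, edgeR adjusted p = 0.000671), with no overlap. DCL4 fell here too (log2 change -0.73, SE 0.126, edgeR adjusted p = 0.0021). The demethylase gene DME fell, as did NRPD2 and IDN2 of RNA-directed DNA methylation (log2 change -0.59, -0.37 and -0.29). Their edgeR adjusted p were 0.0101, 0.0125 and 0.0346, and these genes were named after their values were seen. In RNA-directed DNA methylation 1 of 21 tested genes rose and 3 fell. The demethylase genes DML2 and DML3 did not pass (edgeR adjusted p = 0.163 and 0.974). NRPD1 and MOM1 fell also (log2 change -0.60 and -0.34, edgeR adjusted p = 0.0328 and 0.0429). Over the alternatives the adjusted p ranged from 0.0315 to 0.182 for NRPD1 and from 0.0295 to 0.213 for MOM1, and neither passed with DESeq2. NRPD1 did not pass without any 1 of the 6 libraries of DH6, DH9 and DH14, and MOM1 passed without the first DH14 library and not without any of the others. Of the 7 genes that rose, all but AT2G30620 fall outside the rule for named genes and were named after their values were seen. HTA6 and HTA7, which encode histone H2A.W, rose by 0.74 and 0.56 on the log2 scale (edgeR adjusted p = 0.00146 and 0.00518). ATXR6, a histone H3 lysine methyltransferase, rose by 1.01, AT2G30620 by 0.50 and VIM1, which helps MET1 find its sites, by 0.45 on the log2 scale (edgeR adjusted p = 0.00792, 0.00604 and 0.00649). SUVH4, the histone methyltransferase that works with CMT3, and RDM1 of RNA-directed DNA methylation rose by 0.39 and 0.37 on the log2 scale (edgeR adjusted p = 0.0342 and 0.0412). Of these 7 genes, only AT2G30620 passed against 2n. The log2 changes of HTA6, HTA7 and ATXR6 against 2n were 0.15, 0.08 and 0.38 (edgeR adjusted p = 0.47, 0.718 and 0.311). Those of VIM1, SUVH4 and RDM1 against 2n were 0.04, 0.05 and -0.19 (edgeR adjusted p = 0.813, 0.82 and 0.353). Without DH6 III 4 of the 15 calls were left.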

How the data were processed

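The submitters' processing notes name HISAT2, Subread and DESeq2 and the build TAIR10. The counts at near-identical TE copies or overlapping features are uncertain, because the sources used here do not give tool versions, gene and TE annotation, strand setting or the rule for multiply mapped reads. The authors deposited whole-number counts per gene (27416) and per TE (31189) in 10 tables, which were joined on their identifiers. The 1n columns repeat in the tables; in the sDH gene table one 1n column stands in both places, and only sDH was read from it. Columns named WT were taken as 2n, the one group left. Members, lists and tests were chosen with earlier results of these data known. Shares at a matched gene total are binomial expectations with each library thinned to the smallest gene total (16484799 counts).

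Genes were tested in R 4.3.3 with edgeR 4.0.16 (filterByExpr with minimum count 10 and minimum total 15, TMM, one quasi-likelihood model over 12 libraries, SE as the log2 change over the root of F), tested on simulated data. CPM of named genes use TMM library sizes, and all other CPM the raw gene totals. DESeq2 1.42.0, RLE factors, no filter and each left-out library were alternatives. Named TEs are the 20 highest seen in both DH6 libraries, those passing the filter, the 3 longest runs, the 5 highest in 1 library alone and the 5 highest with 1 count elsewhere. Named genes are 9 fixed ones and up to 8 further with the smallest adjusted p against 2n. Of TE data, nothing was tested. DNA methylation samples were not analysed here.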

Additional observations from a re-analysis of the deposited data

How the results depend on the processing

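The number of members, 3132, depends on the count asked for. It was 1095 with at least 2 counts in one DH6 library, 474 with at least 3 summed counts and 357 with counts in both libraries. Leaving out each library in turn gave 1443 (without DH6 III) to 3275 (without sDH II), with 2046 without DH6 II, and thinning DH6 to the smallest library left 2655 expected members. Thinning moved the DH6 share of silent TEs to 10.2% and that of sDH to 1.57%. With at least 2 counts in a library, the shares were 4.20% in DH6, 0.230% in DH9, 0.173% in DH14, 0.459% in sDH, 0.204% in 2n and 0.324% in 1n. Asking for silence in the 4 groups other than DH6 and the group compared gave 12.5% in DH6 where sDH was left out, against 0.970% in DH9, 1.01% in DH14, 2.36% in sDH, 0.913% in 2n and 1.21% in 1n. DH6 stood highest under each of these settings.

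The chromosome shares fell with stricter counts by construction, to 4.19, 5.07, 4.18, 4.91 and 5.05% on chromosomes 1 to 5 with at least 2 summed counts and to 0.945, 1.496, 1.39, 1.60 and 1.53% with counts in both libraries. Members next to another member were 9.08% with at least 2 summed counts and 5.602% with counts in both libraries.

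Calls among silencing and demethylase genes numbered 8 against 2n, 28 against 1n and 15 against the mean of DH9 and DH14. Leaving out each library gave 1 to 7, 17 to 25 and 4 to 11 calls, and DESeq2 gave 6, 22 and 10. Of the 8 calls against 2n, DESeq2 shared 4. For MORC2 against 2n the adjusted p ranged from 1.12e-06 to 0.00299 over the alternatives. In none of the named genes did a setting turn a called direction round. No paired analysis was possible because the DH6 columns carry the numerals II and III and not the replicate numbers of the labels. At 16484799 to 22146896 gene counts a library, a lone TE count fixes no level.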
